A study of Rattus norvegicus with 8 samples.

Results

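The genes described here encode the initiation and elongation factors of cytosolic translation, with the inhibitors and modifying enzymes that carry the same family names. Members were chosen by symbol alone: protein-coding genes whose names begin with Eif and a digit from 1 to 6, or with Eef and 1 or 2. The Y-linked Eif2s3y and the Eif2ak kinases were left out. Of 62 matching symbols, 57 remained after those exclusions. Eef1akmt3, with 0 to 6 reads per library, failed the filter on low counts and was dropped by the rule, which left 56 members (43 initiation, 13 elongation) among 28909 symbols in the count table and 14309 genes tested. Eif3e, Eif3h and Eif3i were not analysed here.

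RNA came from primary hippocampal neurons of embryonic Sprague-Dawley rats, cultured on porous filter inserts that let processes grow through while cell bodies stay on top. Both compartments, somata and processes, were collected separately. PTX cultures received picrotoxin, a blocker of GABA-A receptors that raises network activity, for 48 h from day in vitro 18 to 20, and control cultures received its ethanol vehicle. Each of the 4 groups (somata control, somata PTX, processes control, processes PTX) had 2 ribosome-depleted total RNA libraries. The labels do not say whether the 2 libraries of a group came from separate cultures, so p-values measure only the spread between these libraries. The Y-linked Eif2s3y stood at 10.3 to 13.8 CPM (read counts scaled to a common library total) in each replicate 1 and 20.3 to 29.7 CPM in each replicate 2, and no source used here says what a replicate number marks.

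Initiation factors bring the initiator tRNA and the small ribosomal subunit to the capped end of an mRNA and select the start codon. Elongation factors then deliver aminoacyl-tRNAs and move the ribosome along the message. In neurons the mRNAs of ribosomal proteins and several of these factors are known from dendrites and axons, and many carry a 5′ terminal oligopyrimidine (TOP) tract, a run of C and T bases at the start of the transcript through which mTORC1 signalling controls their translation.

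Library totals lay between 12290890 and 18455662 counts. Outside the mitochondrial genome, process libraries held 4702054 to 5491237 counts and somata libraries 9517542 to 11227599, so values in processes were the less precise. Levels are CPM after TMM scaling, a factor that lines up the bulk of genes between libraries. Because these factors were 1.81 to 1.93 in somata and 0.486 to 0.570 in processes, every direction between compartments given below is relative to the bulk of genes. Under library size alone the median log2 fold change of all genes became -1.86 in control and -1.87 in PTX cultures, and no member was called higher in processes. Changing the scaling moves all genes by nearly the same amount, so a member's place relative to that median is nearly fixed. With TMM, upper quartile and library size scaling alike, 44 of 56 members lay above the all-gene median in control and 39 in PTX cultures. This count is therefore no check on the scaling. CPM is not divided by transcript length, so levels are compared within a gene and not between genes.

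The cultures also held glia. Summed CPM of 8 neuronal markers was 1788 to 1942 in somata and 5629 to 6141 in processes of control cultures, and that of 7 astrocyte markers 3899 to 4313 and 13062 to 14592. The neuronal rise came mostly with Map2, at a mean of 936 CPM in control somata and 4609 CPM in control processes. Camk2a followed, at 115 and 672 CPM. The astrocyte rise came mostly with Gfap, an intermediate filament of astrocytes, at a log2 fold change of 2.60, and S100b, at 355 and 1586 CPM. By contrast, 4 neuronal and 2 astrocyte markers were lower in processes, so a sum does not stand for all RNA of a cell type. Oligodendrocyte markers summed to 239 to 389 in somata and 365 to 458 in processes. Of 6 microglial markers 5 were in the table, none passed the filter, and they summed to at most 1.49 CPM in either compartment of control cultures. Endothelial and fibroblast markers summed to 29.7 to 89.8 and 25.0 to 51.9 CPM, with Cldn5 at 0 in all libraries. The part of glia in the compartment differences was not tested, and in bulk RNA fewer cells or processes of a type cannot be told apart from less RNA in each.

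To see whether members share a TOP-like start, the 30 bases around the annotated transcript start (15 before and 15 from the start on) were read from RefSeq's promoter table of the GRCr8 build for 52 of the 56 members. Eef1d, Eif4b, Eif4e3 and Eif4ebp1 had no entry. The search was for a C followed by at least 6 further letters that are all C or T, on the gene's own strand only. A run anywhere in the 30 bases counted, and those of Eif3d, Eif3k and Eef1akmt2 lay wholly before the annotated start. Such a run stood in 13 of 52 members (25.0%), in 14.7% of 27457 symbols and in 35.6% of 177 ribosomal protein entries, picked by symbol alone. These entries were not limited to the 75 cytosolic ribosomal protein genes tested below. Their share therefore does not tell how often the search misses a TOP tract. A member without a run may still have a TOP tract. Eef1g and Eef2 held none here but did with 20 bases read on each side of the start. Shown are 3 of the members highest in processes with a run, and the member lowest in processes (runs in capitals, 5′ to 3′). The last shown is a subunit gene that was lower in processes and whose run lies wholly before the annotated start.
Eef1b2, chr9:72074076-72074105 (+): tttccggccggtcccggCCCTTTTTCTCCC
Eif3f, chr1:172369047-172369076 (+): tcacgCCCTTCCgttctagCCTCTCTCTTT
Eef1a1, chr8:88225055-88225084 (-): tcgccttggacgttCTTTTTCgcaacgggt
Eif2b2, chr6:110597964-110597993 (+): ggaagtgaaactggtctggcagttgaggct
Eif3d, chr7:111432726-111432755 (-): ttCCCTCCTgtcttggtccctgcgagtatc
The median log2 fold change between compartments in control cultures was 0.82 over the 13 members with a run and 0.10 over the 39 without. Of those with a run, 8 were called higher and 1 lower in processes, against 15 and 6 of those without. These are descriptions of letters near an annotated start, with a run length and window chosen after several were looked at. With 5 other settings between 15.4% and 32.7% of members held a run, against 9.43% to 23.3% of all symbols. The median over members with a run was then 0.52 to 0.82, so the setting shown shares the highest value, and that over members without was 0.09 to 0.12.

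In control cultures, translation factor mRNAs leaned towards processes, with a higher median for elongation than for initiation genes. After Benjamini-Hochberg adjustment of edgeR's quasi-likelihood test at 0.05, 26 of the 56 members (46.4%) were higher in processes and 7 (12.5%) lower, where 25.8% and 21.9% of all tested genes were called in these directions and 47.7% in either. The median member stood at a log2 fold change of 0.29 and the median gene at -0.05. With each library left out in turn, 25 of the 33 calls held throughout (21 higher, 4 lower), and without replicate 2 of control somata 4 members were called lower in place of 7. With a log2 fold change above 1 as a further condition, 11 members were called higher (11.6% of all genes), and none below -1 (7.58%). Both process libraries lay above both somata libraries for 33 members and below for 9, where 35.9% and 39% of all genes did so. Among the 13 elongation genes 8 were higher and none lower, with a median of 0.80, and among the 43 initiation genes 18 were higher and 7 lower, with a median of 0.22. The elongation set includes the eIF5A genes, Eef1e1 and 4 modifying enzymes. All other members were counted as initiation, also Eif4a3, Eif1ad and Eif6, which have other tasks and gave 2 of the lower calls.

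Elongation genes also stood further towards processes than initiation genes on a measure that needs no scaling between libraries. It compares members only with each other and not with other genes. Elongation genes took 42.5% to 44.7% of all member reads in the 4 somata libraries and 50.2% to 57.2% in the 4 process libraries. Most of this share was that of Eef1a1 and Eef2, which together took 31.9% to 34.3% in somata and 37.3% to 44.6% in processes. On neither measure did the compartments overlap. Cytosolic ribosomal protein genes, the other large family of the translation machinery, had 72 of 75 genes higher and 1 lower in processes, at a median log2 fold change of 1.71.

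**Figure D1:**
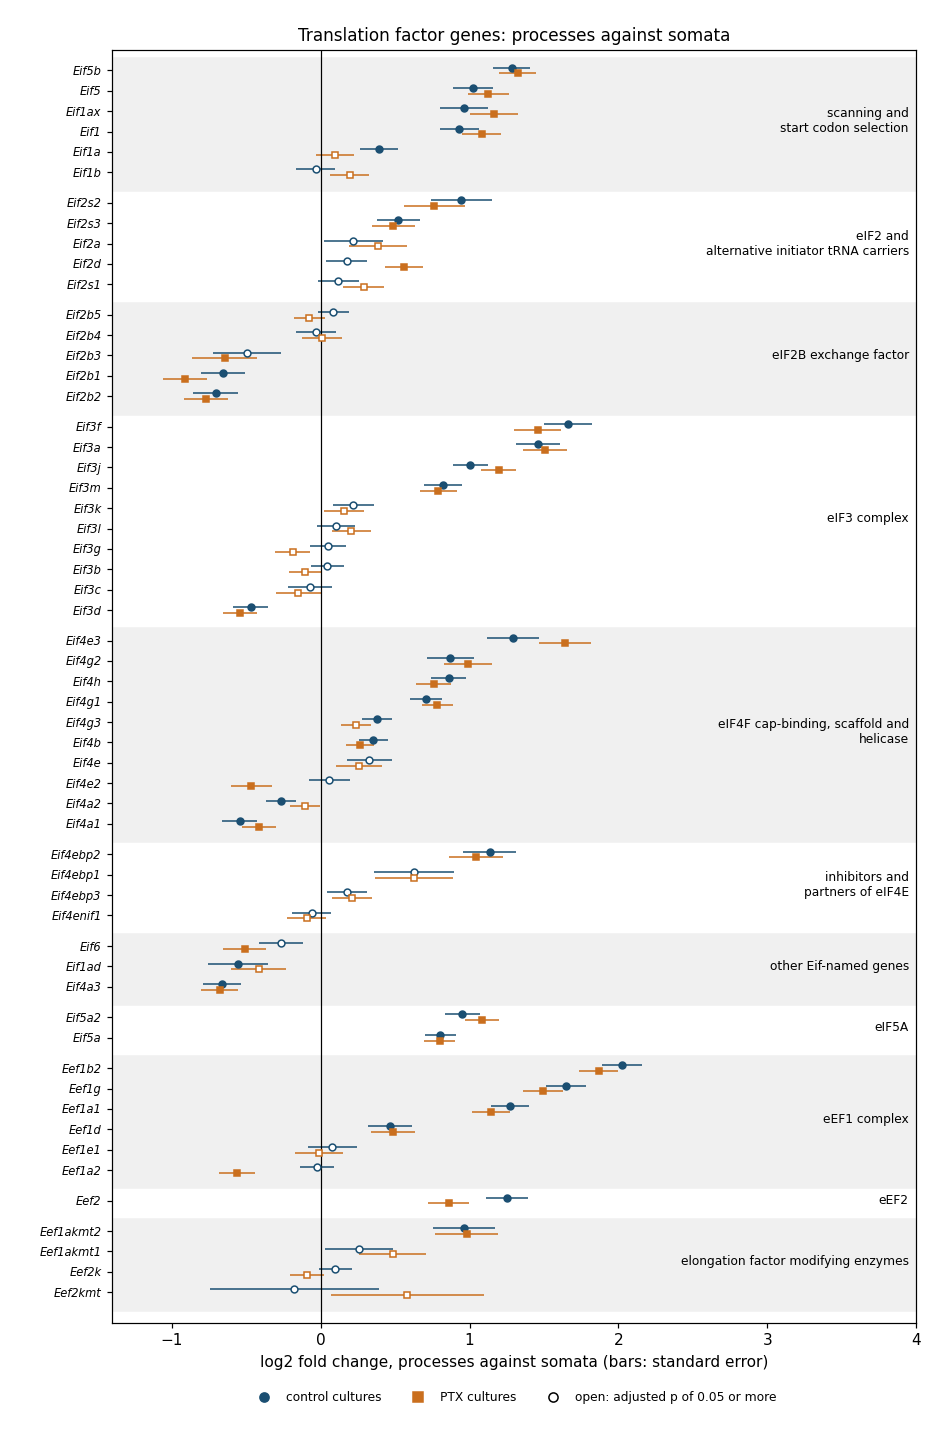
Log2 fold change of each of the 56 members between processes and somata (x axis; above 0 is higher in processes) with its standard error, by role, for control cultures (circles) and PTX cultures (squares); filled symbols have an adjusted p under 0.05. Under TMM scaling 26 members lay to the right and 7 to the left as called in control cultures, and Eif2b1, Eif2b2 and Eif2b3 lie left of 0 in both conditions; under library size alone the whole pattern sits lower and no member is called to the right.

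Among the elongation genes, Eef1b2 and Eef1g had the largest differences between compartments in both conditions. Eef1b2 encodes the nucleotide exchange subunit that recharges eEF1A with GTP, and its mRNA had the largest difference of all members. Its level was 32.4 and 36.4 CPM in somata of control cultures and 127 and 153 CPM in processes, and 36.4 and 39.1 against 128 and 148 CPM with PTX. Every process library thus stood far above every somata library. The log2 fold change was 2.02 (SE 0.13, adjusted p = 1.3e-06) in control and 1.87 (SE 0.13, adjusted p = 1.7e-06) in PTX cultures.

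Eef1g, a structural subunit of the same exchange complex, went from 111 and 126 CPM in control somata to 391 and 349 CPM in control processes, and from 125 and 137 to 405 and 333 CPM with PTX. The log2 fold changes were 1.65 (SE 0.14, adjusted p = 5.1e-06) and 1.49 (SE 0.14, adjusted p = 9.2e-06). Eef1d, the third exchange subunit, moved less, at 0.47 (adjusted p = 0.024) and 0.49 (adjusted p = 0.018), and each call was lost when one or the other of 2 libraries was left out (largest adjusted p of 0.18 and 0.13). Eef1e1, a scaffold protein of the multi-tRNA synthetase complex that carries the family name, was at 0.08 and -0.01, with adjusted p of 0.71 and 0.96.

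Eef1a1, the common form of the factor that brings aminoacyl-tRNA to the ribosome, measured 485 and 566 CPM in control somata against 1317 and 1222 CPM in control processes. With PTX it measured 494 and 539 against 1169 and 1114 CPM. The compartments did not overlap, and the log2 fold changes were 1.27 (SE 0.13, adjusted p = 2.0e-05) and 1.14 (SE 0.13, adjusted p = 4.0e-05). Eef1a1 has near-identical processed copies in mammalian genomes, so some of its reads are of uncertain origin.

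Eef1a2 is the paralog that replaces Eef1a1 in adult neurons and muscle. It measured 50.6 and 53.9 CPM in control somata and 55.98 and 46.7 CPM in control processes, values that overlapped (log2 fold change -0.02, SE 0.12, adjusted p = 0.88). In PTX cultures the values were 39.8 and 39.8 CPM in somata and 27.8 and 26.2 CPM in processes, a log2 fold change of -0.56 (SE 0.12, adjusted p = 0.003). Eef1a1 was thus higher in processes in both conditions, whereas Eef1a2 was not in either.

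Eef2, the translocase of the ribosome, rose from 647 and 717 CPM in control somata to 1730 and 1515 CPM in control processes, and from 765 and 741 to 1495 and 1238 CPM with PTX. The log2 fold changes were 1.25 (SE 0.14, adjusted p = 4.1e-05) and 0.86 (SE 0.14, adjusted p = 0.00049). Eef2k, the kinase that phosphorylates and inactivates eEF2, showed 27.2 and 28.7 CPM in control somata and 31.1 and 28.8 CPM in control processes, a difference of 0.10 (SE 0.11, adjusted p = 0.49). Its mRNA thus had no detectable difference between compartments where that of its substrate was more than 2-fold higher in processes.

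Both forms of eIF5A, which relieves stalled ribosomes and carries the hypusine modification, were higher in processes. Eif5a had 56.7 and 61.6 CPM in control somata and 106 and 100.2 CPM in control processes (log2 fold change 0.80, SE 0.10, adjusted p = 0.00012), and Eif5a2 had 32.6 and 34.2 against 61.6 and 67.6 CPM (0.95, SE 0.11, adjusted p = 7.1e-05). With PTX the fold changes were 0.80 and 1.08. Of the modifying enzymes, Eef1akmt2, a lysine methyltransferase of eEF1A, was higher in processes (0.96, adjusted p = 0.0033), while Eef1akmt1, Eef2k and Eef2kmt were not called. Eef2kmt had only 5 to 28 reads per library.

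**Figure D2:**
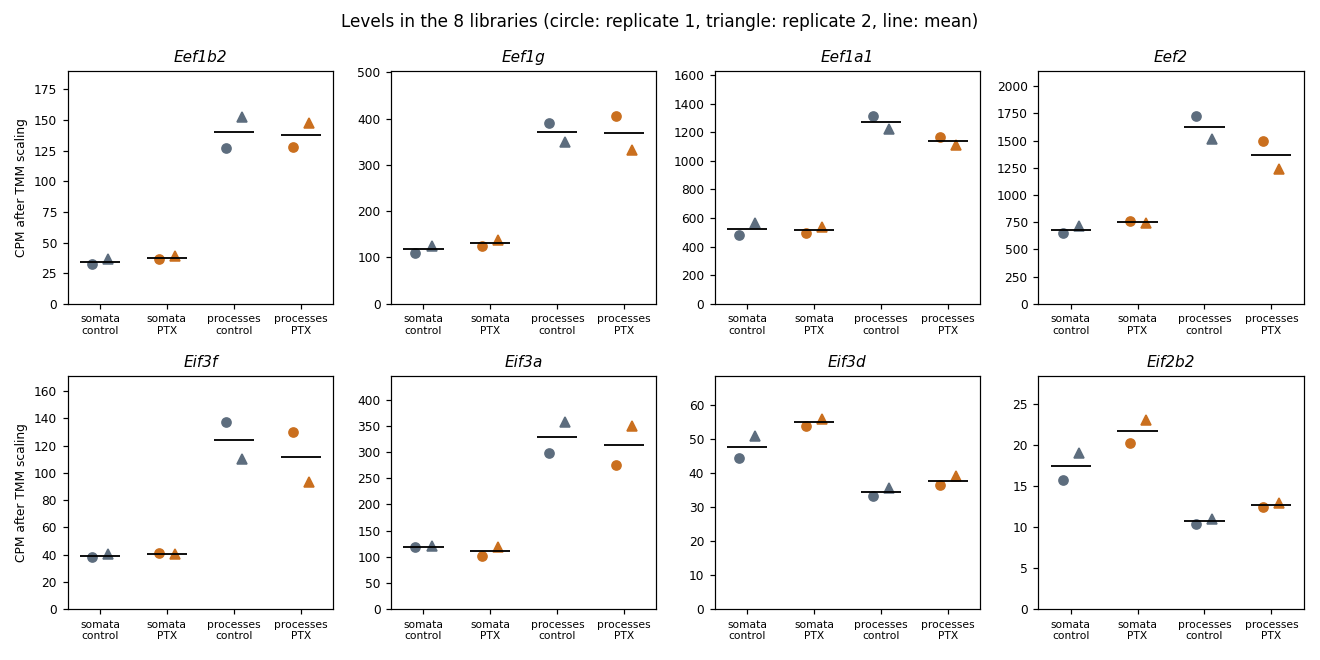
CPM after TMM scaling (y axis, from 0) in each of the 8 libraries for 8 members, with circles for replicate 1, triangles for replicate 2, a line for the mean of the 2 libraries, grey for control and orange for PTX. For Eef1b2, Eef1g, Eef1a1, Eef2, Eif3f and Eif3a all process libraries lie above all somata libraries, and for Eif3d and Eif2b2 they lie below; under library size scaling alone Eef1b2 stays at 0.22 in control and 0.05 in PTX cultures on the log2 scale, uncalled, and the other 7 are lower in processes.

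Among initiation factors, the group for scanning and start codon selection had the highest median, 0.95 in control and 1.10 in PTX cultures. Of its 6 members 5 were higher in control and 4 in PTX cultures, and none was lower. The shares over all genes were 25.8% and 25.7% called higher and 21.9% and 24% called lower. Eif5b, the GTPase that joins the ribosomal subunits, measured 14.8 and 13.4 CPM in control somata and 32.9 and 35.6 CPM in control processes, a log2 fold change of 1.28 (SE 0.13, adjusted p = 1.7e-05). Eif5, which activates GTP hydrolysis by eIF2, was at 1.02 (SE 0.14, adjusted p = 0.00014), Eif1ax at 0.96 and Eif1 at 0.93. The exception was Eif1b, a close paralog of Eif1, with 14.9 and 15.6 CPM in somata and 15.5 and 14.3 CPM in processes (-0.03, adjusted p = 0.85). Eif1a and Eif1ax are close in sequence, so reads could be split between them, and the call of Eif1a in control cultures (0.39, adjusted p = 0.027) was lost without any of 3 libraries (largest adjusted p = 0.14).

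Calls among genes of eIF2, which carries the initiator tRNA, went the other way from those of eIF2B, its guanine nucleotide exchange factor. No test compared these groups with each other. Of 5 genes for eIF2 and alternative carriers, Eif2s2 (log2 fold change 0.95, SE 0.21, adjusted p = 0.0036) and the X-linked Eif2s3 (0.52, SE 0.14, adjusted p = 0.012) were higher in control processes, and Eif2s1, whose protein is the phosphorylated alpha subunit, stood at 0.12 (adjusted p = 0.51). None was lower. Eif2a and Eif2d, which can deliver initiator tRNA without eIF2, were at 0.22 (adjusted p = 0.38) and 0.18 (adjusted p = 0.31) in control cultures. In PTX cultures Eif2d was at 0.56 (SE 0.13, adjusted p = 0.0045) and Eif2a at 0.38 (adjusted p = 0.13, and 0.015 with the replicate block). Eif2s3 measured 114 and 98.8 CPM in control somata and 167 and 138 CPM in control processes, with replicate 1 above replicate 2 in each of the 4 groups, and its call was lost without replicate 2 of control somata or replicate 1 of control processes (largest adjusted p = 0.096). Eif2s1 stood at 0.29 with PTX (adjusted p = 0.11, and 0.02 with the block).

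None of the 5 eIF2B genes was called higher in processes, where 25.8% of all genes were in control and 25.7% in PTX cultures. In control 2 (40%) and in PTX cultures 3 (60%) were called lower, where 21.9% and 24% of all genes were. The median of the 5 genes was -0.49 in control and -0.64 in PTX cultures. Eif2b2, the beta subunit, measured 15.8 and 19.1 CPM in control somata and 10.4 and 11.04 CPM in control processes, and 20.3 and 23.1 against 12.4 and 12.97 CPM with PTX. The libraries of the compartments did not overlap, and the log2 fold changes were -0.71 (SE 0.15, adjusted p = 0.0032) and -0.77 (SE 0.15, adjusted p = 0.0014). Eif2b1, the alpha subunit, had 11.7 and 12.7 CPM in control somata against 7.81 and 7.63 CPM in control processes, at -0.66 (SE 0.15, adjusted p = 0.0041) and, with PTX, -0.91 (SE 0.15, adjusted p = 0.00048). Eif2b3, the gamma subunit, was at -0.49 in control cultures (adjusted p = 0.094, and 0.027 with replicate number as a block) and at -0.64 in PTX cultures (adjusted p = 0.031), a call lost without any 1 of the 4 libraries of the PTX cultures (largest adjusted p = 0.15). Its control processes held 4.46 and 7.75 CPM, and without replicate 2 of that group the control value was -0.94 (adjusted p = 0.011). Eif2b5, the catalytic epsilon subunit, was at 0.09 (adjusted p = 0.52) and -0.08 (adjusted p = 0.57), so subunits of this complex did not share 1 pattern. Eif2b4, at -0.03 in control and 0.01 in PTX cultures, was not called either.

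The 10 tested subunit genes of eIF3, the scaffold that binds the small subunit, split as well. In both conditions 4 were higher in processes, 1 was lower and the others were not called. These are 40% and 10%, where 25.8% and 21.9% of all genes were called in control and 25.7% and 24% in PTX cultures. Eif3f rose from 37.9 and 40.4 CPM in control somata to 138 and 110.4 CPM in control processes (log2 fold change 1.66, SE 0.16, adjusted p = 1.5e-05). Eif3a, the largest subunit, rose from 119 and 119.9 to 298 and 358 CPM (1.46, SE 0.15, adjusted p = 2.1e-05). Eif3j and Eif3m followed at 1.005 and 0.82.

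Eif3d, the subunit with cap-binding activity of its own, was the exception. It fell from 44.4 and 51.0 CPM in control somata to 33.2 and 35.6 CPM in control processes, and from 53.97 and 55.97 to 36.5 and 39.0 CPM with PTX. The log2 fold changes were -0.47 (SE 0.11, adjusted p = 0.0065) and -0.54 (SE 0.11, adjusted p = 0.0026). The first of these was no longer called without replicate 2 of control somata (adjusted p = 0.059). Eif3c, at -0.07 and -0.15, and Eif3b, Eif3g, Eif3k and Eif3l were not called in either condition.

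In the cap-binding group, scaffold and helicase genes went separate ways. Eif4g1, the main scaffold of eIF4F, stood at 0.71 (SE 0.11, adjusted p = 0.00034) and Eif4g2, a related scaffold, at 0.87 (SE 0.16, adjusted p = 0.0012) in control cultures. Eif4h, a helper of the helicase, was at 0.86 (SE 0.12, adjusted p = 0.00017) and Eif4b, another, at 0.35 (SE 0.10, adjusted p = 0.012), the last being lost without either library of control somata (largest adjusted p = 0.067). Eif4g3, a second scaffold, was at 0.38 (SE 0.10, adjusted p = 0.011), lost without replicate 2 of control somata or replicate 1 of control processes (largest adjusted p = 0.073) and with upper quartile scaling (0.17), and at 0.24 with PTX (adjusted p = 0.077, and 0.03 with the block). The helicases themselves were lower in control cultures, while with PTX Eif4a1 was called lower at -0.41 and Eif4a2, at -0.11, was not called. With single libraries left out, that PTX value of Eif4a1 ranged from -0.50 to -0.32. In control cultures Eif4a1 had 98.9 and 112 CPM in somata and 69.0 and 75.5 CPM in processes (-0.54, SE 0.12, adjusted p = 0.003). Eif4a2 had 165 and 167 against 136 and 140.0 CPM (-0.27, SE 0.10, adjusted p = 0.046), a call that was lost when any of the 8 libraries was left out.

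Of the cap-binding proteins, Eif4e3, a divergent family member, was higher in processes, with 7.40 and 6.62 CPM in control somata and 19.0 and 15.4 CPM in control processes (log2 fold change 1.29, SE 0.17, adjusted p = 0.00015), and 1.64 (adjusted p = 2.7e-05) with PTX. Eif4e, the canonical cap-binding protein, was at 0.33 (SE 0.15, adjusted p = 0.1, and 0.018 with the replicate block). Without replicate 1 of control processes, which had 40.3 CPM where replicate 2 had 58.5 CPM, the value was 0.57 (adjusted p = 0.0059). Eif4e2, a repressive cap-binding protein, was at 0.06 (adjusted p = 0.75) in control and -0.47 (SE 0.14, adjusted p = 0.015) in PTX cultures. The second call was lost without replicate 1 of PTX somata (adjusted p = 0.081) and without replicate 2 of PTX processes (adjusted p = 0.11).

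The 4 genes for inhibitors and partners of eIF4E gave 1 call, higher in processes, in each condition. That is 25%, where 25.8% of all genes were called higher in control and 25.7% in PTX cultures. Eif4ebp1, Eif4ebp2 and Eif4ebp3 encode the eIF4E-binding proteins, which block the cap-binding protein until mTORC1 phosphorylates them. Eif4ebp2, the main form in brain, measured 12.8 and 16.5 CPM in control somata and 32.3 and 32.1 CPM in control processes, a log2 fold change of 1.14 (SE 0.18, adjusted p = 0.00045). Eif4ebp1 was at 0.63 in control (SE 0.27, adjusted p = 0.076, and 0.00047 with the replicate block) and at 0.63 in PTX cultures (adjusted p = 0.069, and 0.00052 with the block). The libraries lay close, with 7.48 and 11.98 CPM in control somata and 12.5 and 17.7 CPM in control processes, and without replicate 2 of control somata the value was 1.0035 (adjusted p = 0.021). Eif4ebp3 (0.18) and Eif4enif1, which shuttles eIF4E into the nucleus (-0.06), were not called.

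Of 3 genes of the family name with other tasks, 2 were lower in processes in each condition and none was higher, and Eif4a3 alone was lower in both. Over all genes 21.9% were called lower in control and 24% in PTX cultures, and 25.8% and 25.7% higher. Eif4a3, the helicase of the exon junction complex, had 34.1 and 36.5 CPM in control somata against 20.1 and 24.7 CPM in control processes (log2 fold change -0.66, SE 0.13, adjusted p = 0.0016), and -0.68 (adjusted p = 0.0012) with PTX. Eif1ad, a protein with an eIF1A-like domain, was at -0.55 (SE 0.20, adjusted p = 0.041) in control cultures, lost without any 1 of the 4 control libraries (largest adjusted p = 0.19), and at -0.42 (adjusted p = 0.087, and 0.028 with the replicate block) in PTX cultures. Eif6, which keeps the large subunit from joining too early, was at -0.27 (adjusted p = 0.16) and -0.51 (SE 0.15, adjusted p = 0.014), the second lost without replicate 1 of PTX somata or of PTX processes (largest adjusted p = 0.083).

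PTX cultures gave nearly the same division. There 25 members (44.6%) were higher and 9 (16.1%) lower in processes, against 25.7% and 24% of all genes, with 49.8% called in either direction, and 13 exceeded a log2 fold change of 1 (11.4% of all genes). Of the 34 calls 26 held with each library left out in turn (21 higher, 5 lower). The median member was at 0.34 and the median gene at -0.05. Of the 56 members 29 were called in both conditions, all with the same sign (24 higher, 5 lower), 4 in control cultures only, 5 in PTX cultures only and 18 in neither. The process and somata libraries of the conditions are separate, but being called in one condition and not the other is not a test of a difference between them. That test, the interaction of compartment and PTX, called none of the 56 members and none of the 14309 genes (0%). At an unadjusted p under 0.05 it had 2 members and 572 genes (4% of all), and with the replicate block it called 15 genes (0.105%), none a member.

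Gene pairs with related roles were compared as ratios within each library, which needs no scaling. In 8 such pairs, the log2 ratio was set against compartment in an exact permutation test, two-sided, 4 libraries against 4, with Benjamini-Hochberg adjustment over the 8 pairs. Eef1a2 over Eef1a1 lay between -3.76 and -3.26 in the somata libraries and between -5.40 and -4.55 in the process libraries, a mean difference of -1.50. The ratio of Eef2k to Eef2 differed by -1.05, Eif1b to Eif1 by -0.92 and Eif4g3 to Eif4g1 by -0.44, each lower in processes in all 4 libraries than in any somata library. Eif5a2 over Eif5a was the opposite, higher in processes by 0.21 without overlap. These 5 pairs each had an exact permutation p = 0.0286, the smallest that 4 against 4 can give, and an adjusted p = 0.0457. None of the 5 calls held with each library left out in turn: 4 of them were lost without replicate 1 of control somata, replicate 2 of control processes or either PTX process library (largest adjusted p = 0.0762), and that of Eif5a2 over Eif5a also without replicate 1 of control processes (largest adjusted p = 0.163). The adjusted p of a pair at the smallest p depends on how many of the 8 pairs reach it. A lost call thus need not mean that the pair's own ratio changed.

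The remaining pairs did not pass the threshold. Eif4e2 over Eif4e differed by -0.48 (exact permutation p = 0.0571, adjusted p = 0.0762), Eif4ebp2 over Eif4ebp1 by 0.45 (exact permutation p = 0.0857, adjusted p = 0.098) and Eif4a2 over Eif4a1 by 0.29 (exact permutation p = 0.143). With libraries paired by number and treatment, the exact sign-flip test over 4 pairs cannot go below 0.125, which each of the 8 pairs of genes reached.

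**Figure D3:**
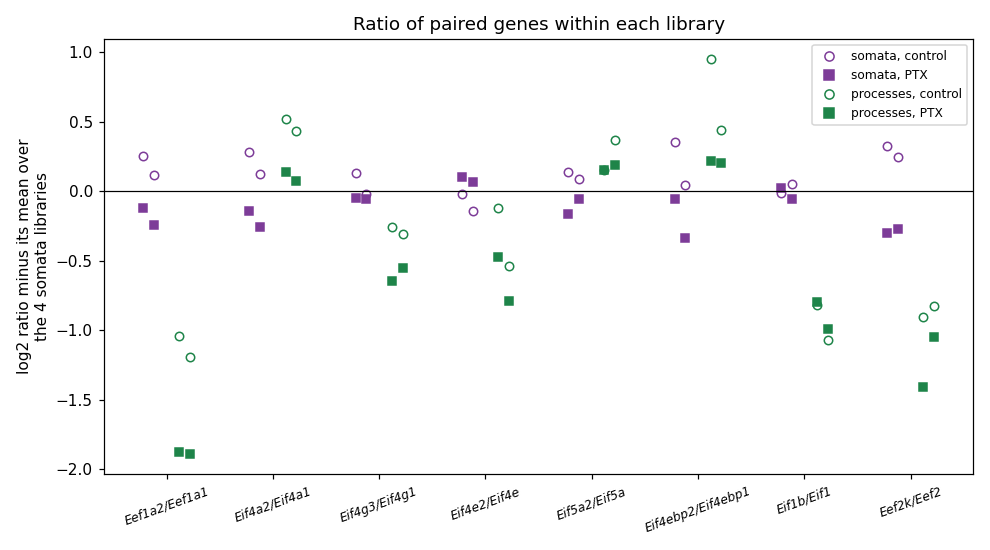
Log2 ratio of 2 related genes in each of the 8 libraries, minus its mean over the 4 somata libraries (y axis), for somata (purple) and processes (green), control (open circles) and PTX (filled squares). Process libraries lie below all somata libraries for Eef1a2/Eef1a1, Eif4g3/Eif4g1, Eif1b/Eif1 and Eef2k/Eef2 and above them for Eif5a2/Eif5a; these ratios do not depend on library scaling.

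Few members passed the test for PTX. In somata no member was called, where 3.59% of all genes were; 6 members had an unadjusted p under 0.05 (15.6% of all genes), DESeq2 called none and edgeR's likelihood ratio test 2. In processes 2 members were called, both lower with PTX, where 3.74% of all genes were called and 2.1% in that direction. These were Eef1a2 and Eef2k, and the second was lost without any 1 of 3 process libraries. The median log2 fold change over members was 0.03 in somata and 0.01 in processes, with -0.01 over all genes in each. Over the 56 members the values ran from -0.43 (Eef2k) to 0.36 (Eif1ad) in somata and from -0.93 (Eef1a2) to 0.65 (Eef2kmt) in processes.

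Eef1a2 fell from 55.98 and 46.7 CPM to 27.8 and 26.2 CPM in processes with PTX. Both PTX libraries were below both control libraries, and the level was 1.90-fold lower (log2 fold change -0.93, SE 0.12, adjusted p = 0.004). In somata it measured 50.6 and 53.9 CPM without and 39.8 and 39.8 CPM with PTX, also without overlap (-0.39, SE 0.11, adjusted p = 0.091, and 0.0049 with the replicate block). The effect in processes minus that in somata was -0.54 (SE 0.17, adjusted p = 1.0, and 0.18 with the block), so a difference between compartments was not established. Eef1a1 stood at -0.02 in somata and -0.15 in processes (adjusted p of 0.96 and 0.61).

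Eef2k fell from 31.1 and 28.8 CPM to 18.9 and 20.1 CPM in processes with PTX, a 1.53-fold lower level (log2 fold change -0.62, SE 0.12, adjusted p = 0.02). The call was lost without replicate 1 of control processes (adjusted p = 0.13), without replicate 1 of PTX processes (0.11) and without replicate 2 of PTX processes (0.08), while the log2 fold change stayed between -0.67 and -0.56. In somata the values were 27.2 and 28.7 CPM without and 20.9 and 20.7 CPM with PTX (-0.43, SE 0.11, adjusted p = 0.056, and 0.004 with the replicate block). Eef2, its substrate, was at 0.14 in somata and -0.25 in processes (adjusted p of 0.72 and 0.41).

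With the replicate block 14% of all genes were called in somata and 11.2% in processes. Among members 3 were called in somata, all lower with PTX: Eef1a2, Eef2k and Eif4a2. The last, a form of the helicase, measured 165 and 167 CPM without and 131 and 137 CPM with PTX (log2 fold change -0.31, SE 0.10, adjusted p = 0.13, and 0.016 with the block). In processes the block added Eif2d, a factor for alternative initiation and recycling. It measured 13.2 and 13.97 CPM without and 19.1 and 21.2 CPM with PTX (0.57, SE 0.14, adjusted p = 0.0501, and 0.0076 with the block).

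Neuronal markers moved with PTX too, and not in 1 direction: of 8 markers 1 was higher and 2 lower in each compartment. Gad1, which makes GABA in inhibitory neurons, was at 0.82 in somata (adjusted p = 0.025) and 0.56 in processes (adjusted p = 0.14), and Slc17a7, a glutamate transporter of excitatory neurons, at -0.33 (adjusted p = 0.25) and 0.74 (adjusted p = 0.017). Camk2a, a kinase of excitatory neurons, fell by 1.13 in somata and 1.45 in processes on the log2 scale, and the other markers called lower were Rbfox3 in somata (-0.67) and Syn1 in processes (-0.76). The summed CPM of the 8, to which Map2 contributed most, was 1564 to 1707 in PTX somata and 4213 to 4836 in PTX processes, below the control ranges given above. Astrocyte markers summed to 3014 to 4030 and 11128 to 12406 CPM. The part of these shifts in the falls of Eef1a2 and Eef2k was not tested.

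**Figure D4:**
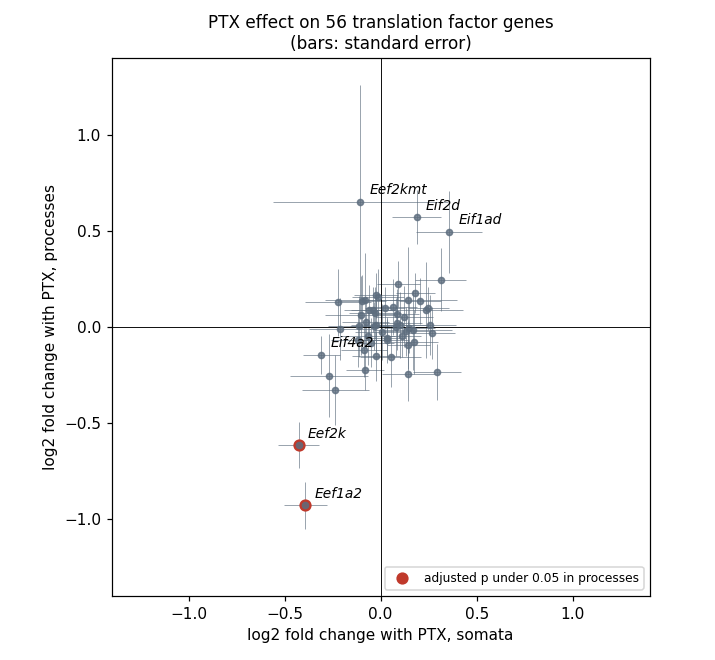
Log2 fold change with PTX in somata (x axis) and in processes (y axis) for the 56 members, with standard errors; red points have an adjusted p under 0.05 in processes. Eef1a2 (-0.39 and -0.93) and Eef2k (-0.43 and -0.62) lie apart at the lower left, and Eef2kmt, at 5 to 28 reads per library, has the widest bars.

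**Figure D5:**
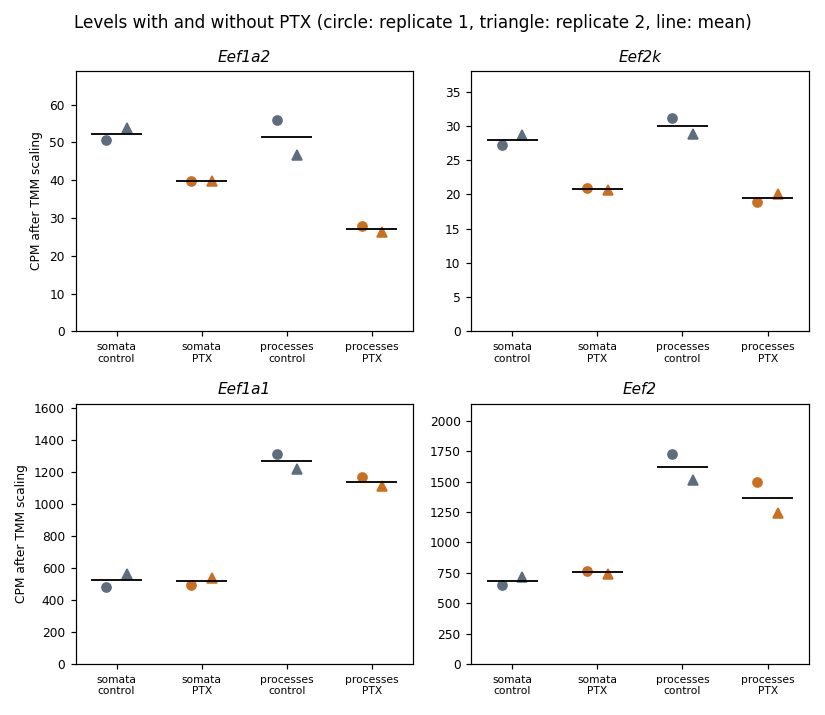
CPM after TMM scaling (y axis, from 0) of 2 elongation genes called lower with PTX in processes and their partners, with circles for replicate 1, triangles for replicate 2 and a line for the mean of 2 libraries. In processes Eef1a2 goes from 55.98 and 46.7 to 27.8 and 26.2 CPM and Eef2k from 31.1 and 28.8 to 18.9 and 20.1 CPM, while Eef1a1 and Eef2 were not called.

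Regulators of these factors were taken from 4 lists: the eIF2 kinases and stress response, mTORC1 and its targets, cap complex regulators, and hypusine synthesis, termination and recycling. Of 36 tested genes 13 were higher and 4 lower in processes of control cultures, and 13 and 7 in PTX cultures. These are 36.1% and 11.1% in control cultures, where 25.8% and 21.9% of all genes were called, and 36.1% and 19.4% in PTX cultures, against 25.7% and 24%. Pabpc1, the poly(A)-binding protein that bridges to eIF4G, went from 83.8 and 84.1 CPM in control somata to 413 and 381 CPM in control processes (log2 fold change 2.24, SE 0.11, adjusted p = 5.1e-07). Eif2ak2, the eIF2 kinase activated by double-stranded RNA, was at 1.97 (adjusted p = 1.5e-06) and Rps6, a ribosomal protein and target of S6 kinase, at 1.44 (adjusted p = 5.0e-06).

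Within the mTORC1 list Tsc2, an inhibitor upstream of mTORC1, went from 61.5 and 61.3 to 478 and 415 CPM (2.86, SE 0.13, adjusted p = 4.5e-07), and Akt1s1, an inhibitory subunit, was at 1.11 (adjusted p = 0.00017). Rps6kb2, a S6 kinase, was lower at -1.18 (adjusted p = 0.0025), from 6.16 and 6.85 to 2.79 and 2.94 CPM.

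With PTX, 2 of the 36 genes (5.56%) were called in somata, both higher, where 3.59% of all genes were called in either direction. Ppp1r15a, which brings a phosphatase to eIF2, measured 13.9 and 17.1 CPM without and 26.4 and 23.5 CPM with PTX (0.68, SE 0.15, adjusted p = 0.034), and Dhps, the first enzyme of hypusine synthesis, 14.2 and 13.98 CPM without and 22.2 and 22.0 CPM with PTX (0.65, SE 0.14, adjusted p = 0.026). Each of these calls was lost without any 1 of the 4 somata libraries (largest adjusted p of 0.25 and 0.19). In processes the 1 call (2.78%, against 3.74% of all genes) was Gspt2, a form of the release factor eRF3. It measured 6.36 and 5.75 CPM without and 3.10 and 3.02 CPM with PTX (-0.99, SE 0.20, adjusted p = 0.027), and this call too was lost without any 1 of the 4 process libraries (largest adjusted p = 0.15).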

How the data were processed

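Per the study's methods, the authors used Trimmomatic for adapter trimming and Subread subjunc for alignment to Rnor 6.0, and made the deposited counts with featureCounts, aggregated to gene symbols without normalization; the submitters' processing notes name STAR, featureCounts and edgeR. The authors also deposited tables of their own PTX comparisons, which hold log2 fold changes, test statistics and p-values; only their symbol and biotype columns were used, to apply the membership rule.

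The filter, over 20 reads in 2 or more libraries, left 14309 genes. TMM factors, glmQLFit and glmQLFTest of edgeR 4.0.16 in R 4.3.3 were run on the counts of all 8 libraries with 1 coefficient per group, and p-values were Benjamini-Hochberg adjusted over all genes within each of 5 contrasts at 0.05. CPM are after TMM scaling, and log2 CPM for gene ratios used a prior count of 2. DESeq2 1.42.0, other scalings, filters and subsets of libraries were alternatives. The code was tested on simulated data. The aggregated symbols cannot separate gene copies, and reads of near-identical paralogs and pseudogenes are of uncertain origin.

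The replicate numbers were taken as pairing the libraries because the difference between replicates 2 and 1 correlated over genes in all 6 pairs of groups (r from 0.274 to 0.540); no source used here says what a number marks. Replicate block means this number as a term in the model.

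Members and lists were chosen with earlier results of these data known. Named are members called with an absolute log2 fold change above 1, members called with PTX, the extremes of each role group and the gene pairs, and list genes called with PTX or past a log2 fold change of 1 between compartments. Other members were named after their values were seen. Eif1a was put in its role group after the data were seen.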

Additional observations from a re-analysis of the deposited data

How the results depend on the processing

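Of the 33 members called between compartments in control cultures, 30 remained called with DESeq2, 28 with upper quartile scaling, 32 with the likelihood ratio test and 33 with the replicate block, and leaving out single libraries, where the lone library was assumed to vary like the other groups, gave 27 to 32 calls. The lower calls numbered 4 to 7, with 4 without replicate 2 of control somata. In PTX cultures leaving out single libraries gave 28 to 34 calls, 6 to 9 of them lower. An adjusted p of 0.01 left 5 lower calls in PTX cultures.

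Library size alone shifted the bulk of genes downwards in processes and called 52 members lower and 0 higher in control cultures and 53 lower and 0 higher in PTX cultures. The median was then -1.86 and -1.87 over all genes and -1.51 and -1.49 over members. The share of all genes called under that scaling is not given here, so these counts show nothing particular to members. The log2 fold changes that changed sign there in control cultures were Eef1a1 -0.54, Eef1akmt1 -1.55, Eef1akmt2 -0.84, Eef1d -1.34, Eef1e1 -1.72, Eef1g -0.17, Eef2 -0.56, Eef2k -1.71, Eif1 -0.87, Eif1a -1.41, Eif1ax -0.84, Eif2a -1.58, Eif2b5 -1.72, Eif2d -1.63, Eif2s1 -1.68, Eif2s2 -0.84, Eif2s3 -1.29, Eif3a -0.34, Eif3b -1.76, Eif3f -0.15, Eif3g -1.76, Eif3j -0.80, Eif3k -1.59, Eif3l -1.70, Eif3m -0.98, Eif4b -1.45, Eif4e -1.46, Eif4e2 -1.75, Eif4e3 -0.52, Eif4ebp1 -1.17, Eif4ebp2 -0.68, Eif4ebp3 -1.63, Eif4g1 -1.10, Eif4g2 -0.93, Eif4g3 -1.43, Eif4h -0.95, Eif5 -0.78, Eif5a -1.01, Eif5a2 -0.85, Eif5b -0.52, Rps6 -0.37 and Akt1s1 -0.70. In PTX cultures they were Eef1a1 -0.69, Eef1akmt1 -1.33, Eef1akmt2 -0.84, Eef1d -1.34, Eef1g -0.34, Eef2 -0.97, Eef2kmt -1.22, Eif1 -0.74, Eif1a -1.73, Eif1ax -0.65, Eif1b -1.63, Eif2a -1.44, Eif2b4 -1.82, Eif2d -1.26, Eif2s1 -1.53, Eif2s2 -1.05, Eif2s3 -1.35, Eif3a -0.31, Eif3f -0.38, Eif3j -0.63, Eif3k -1.68, Eif3l -1.62, Eif3m -1.03, Eif4b -1.56, Eif4e -1.57, Eif4e3 -0.19, Eif4ebp1 -1.19, Eif4ebp2 -0.78, Eif4ebp3 -1.61, Eif4g1 -1.05, Eif4g2 -0.83, Eif4g3 -1.59, Eif4h -1.07, Eif5 -0.69, Eif5a -1.03, Eif5a2 -0.74 and Eif5b -0.50.

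For PTX in somata, where no member was called, an adjusted p of 0.1 or the likelihood ratio test gave 2 calls, upper quartile scaling 1 and the replicate block 3, all lower. For PTX in processes, an adjusted p of 0.01, library size alone or only the 4 libraries compared gave 1 call, lower, and leaving out single libraries gave 1 to 2. An adjusted p of 0.1, the likelihood ratio test, upper quartile scaling, no filter, a minimum of 10 reads in every library and the replicate block each added 1 higher call, Eif2d. The interaction gave 0 calls among members with the block and in each library left out.

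Under pairing by replicate number the gene ratios Eef1a2 over Eef1a1 (-1.50), Eif4g3 over Eif4g1 (-0.44), Eif5a2 over Eif5a (0.21), Eif1b over Eif1 (-0.92) and Eef2k over Eef2 (-1.05) had an exact p = 0.125, by construction the smallest of 4 pairs. Leaving out single libraries, the same ratios ranged from -1.66 to -1.37, -0.50 to -0.37, 0.16 to 0.26, -0.96 to -0.87 and -1.15 to -0.93, and each call was lost without 4 of the 8 libraries (5 for Eif5a2 over Eif5a), at adjusted p up to 0.163. Such a loss can come from the other pairs through the adjustment. Eif4e2 over Eif4e ranged from -0.60 to -0.38, with -0.60 past the threshold without replicate 1 of control processes. The replicate block changed the calls of 3 members between compartments in control and 5 in PTX cultures (Eif2b3, Eif4e and Eif4ebp1, and Eif1ad, Eif2a, Eif2s1, Eif4ebp1 and Eif4g3), 3 for PTX in somata and 1 in processes, all from not called to called, and no other. With 2 libraries per group, differences of the size of the standard errors given were not detectable.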
